A study of Homo sapiens with 9 samples.

Results

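The genes ABCA5, ABCA6, ABCA8, ABCA9 and ABCA10 lie side by side on human chromosome 17 and encode lipid transporters. They were followed by symbol through RNA sequencing of LN229 cells, an established human glioblastoma line, and all 5 were found among the 19356 genes of the table. The set was chosen by a measured value, the low ABCA8 RNA of both knockout lines against wild type, and its neighbours were added by position. Differences of the members from wild type are therefore given as a description, with no test. Polyadenylated RNA came from 9 libraries in 3 groups: B3 and C4, a pair of lines in which ARNT2 was targeted by CRISPR, and wild-type cells (WT), with 3 libraries each. All were grown in DMEM with 5% FBS, and the study asked what ARNT2, a transcription factor of the bHLH-PAS family, does in glioblastoma growth and differentiation. The labels do not say whether B3 and C4 are single clones, what the wild-type cells had been through, or whether cultures were grown separately for each library. All p-values therefore measure only a spread between libraries, which may be technical.

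Transporters of the ABCA class are large membrane proteins that use ATP to move lipids across or out of membranes. The genes of this cluster arose from one another by duplication and form their own branch of the class. ABCA8 has been linked to cholesterol efflux and, in oligodendrocytes, to sphingomyelin production. ABCA5 sits in lysosomes and late endosomes and takes part in cholesterol handling. ABCA6, ABCA9 and ABCA10 are less well understood, and their RNA responds to cholesterol in human macrophages.

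All 5 genes are read from the minus strand, and their order along the chromosome is ABCA8, ABCA9, ABCA6, ABCA10 and ABCA5. On GRCh38 in GENCODE 29, ABCA8 (ENSG00000141338.13) spans bases 68867292 to 68955392, ABCA9 (ENSG00000154258.16) 68974488 to 69061064, ABCA6 (ENSG00000154262.12) 69078702 to 69141888, ABCA10 (ENSG00000154263.17) 69147214 to 69244846 and ABCA5 (ENSG00000154265.15) 69244311 to 69327244. The cluster is 460.0 kb long, and the 5′ end of ABCA10 overlaps the 3′ end of ABCA5 by 536 bases. The RefSeq promoter table (GRCh38.p14, 250 bases before to 50 bases after each start) matched 4 of the 5 genes, all but ABCA8. Windows of 3 members are shown, and those of ABCA10 are not printed. The ABCA5 window differs sharply in base composition from those of ABCA6 and ABCA9, in genes that all lie in the same cluster. Capitals mark ACGTG and GCGTG, cores that HIF and ARNT dimers bind, searched on both strands. GCGTG is also the core of the dioxin response element.
ABCA6, chr17:69141846-69142145, minus strand: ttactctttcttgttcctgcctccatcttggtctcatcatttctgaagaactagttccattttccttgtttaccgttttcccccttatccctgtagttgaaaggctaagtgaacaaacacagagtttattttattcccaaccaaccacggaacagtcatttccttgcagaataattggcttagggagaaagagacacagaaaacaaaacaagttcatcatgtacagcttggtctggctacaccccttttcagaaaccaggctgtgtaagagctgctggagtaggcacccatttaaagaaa
ABCA9, chr17:69060878-69061177, minus strand: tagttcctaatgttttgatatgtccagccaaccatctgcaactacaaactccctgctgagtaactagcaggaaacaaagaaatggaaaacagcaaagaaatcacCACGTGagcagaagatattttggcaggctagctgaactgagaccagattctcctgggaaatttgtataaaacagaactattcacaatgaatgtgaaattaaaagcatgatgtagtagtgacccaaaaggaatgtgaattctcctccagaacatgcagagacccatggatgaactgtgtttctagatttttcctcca
ABCA5, chr17:69327084-69327383, minus strand: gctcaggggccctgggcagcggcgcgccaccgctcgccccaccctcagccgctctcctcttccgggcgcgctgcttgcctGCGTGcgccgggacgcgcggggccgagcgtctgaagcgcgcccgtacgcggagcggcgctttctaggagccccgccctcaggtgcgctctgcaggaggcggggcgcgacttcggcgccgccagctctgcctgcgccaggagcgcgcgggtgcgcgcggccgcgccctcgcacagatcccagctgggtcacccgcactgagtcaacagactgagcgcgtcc
The ABCA5 window was 76.3% G or C and held 45 CG pairs, and 92.6% of the 35116 promoter windows in the table had a lower GC content. The ABCA6 window was 41.7% G or C with 2 CG pairs, and the ABCA9 window 39.7% with 1. ABCA10 had 2 windows, at 25.0% and 32.3%, both below the median of 58.7% over all windows. ABCA9 held the palindrome CACGTG, which contains ACGTG on each strand and occurs in 7.26% of all windows, while ACGTG occurs in 21.4%. ABCA5 held GCGTG once, a motif found in 36.5% of all windows. Neither 5-base core was present in the windows of ABCA6 and ABCA10. These matches describe letters and not binding.

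The table holds log2 values that the authors scaled between libraries, and their read depth is unknown. Library medians lay between 10.62 and 10.65. The median SD between replicates was 0.0411 for genes with values of 10 to 12, 0.0537 at 6 to 8, 0.0351 at 4 to 6 and 0.00935 below 2. At the low end of the table the spread thus narrowed below a value of 6, and the 5 cluster genes lay above it in every library. The transform behind the values is not given, so whether it also narrowed differences at the levels of the cluster genes was not tested. ARNT2, the targeted gene, was at 11.91, 11.90 and 11.86 in the B3 libraries and 12.22, 12.15 and 12.05 in the C4 libraries, against 13.56, 13.59 and 13.58 in the WT libraries. For each line against WT the exact permutation p (two-sided) was 0.1, the smallest that 3 against 3 libraries can reach. ARNT2 RNA was thus not absent from either line, at 31.1% of the WT level in B3 and 37.1% in C4. Of the 10 glioma cell markers, 7 had every group mean at or above 11.74, while GFAP was at 6.61 to 6.98, CHI3L1 at 5.07 to 5.34 and SOX9 at 4.09 to 4.23 over all libraries. Of the immune markers, PTPRC and CD3E stayed at or below 2.40 in every library, CSF1R was at 5.45 to 5.59, and CD68, which is also a lysosomal gene, at 10.68 to 10.99.

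ABCA8 stood apart from the other members in the size of its difference. It was at 8.38, 8.24 and 8.21 in the B3 libraries and 8.43, 8.19 and 8.27 in the C4 libraries, against 11.46, 11.40 and 11.37 in the WT libraries. The knockout libraries overlapped each other, and the gap from the highest of them to the lowest WT library was 2.94 on the log2 scale. B3 minus WT was -3.13 ± 0.06 and C4 minus WT was -3.11 ± 0.06 (SE, n = 3 libraries per group), which put ABCA8 RNA at 11.4% of its WT level in B3 and 11.6% in C4. In each line this was the lowest difference from WT among the 16457 genes tested. By level, ABCA8 ranked above 37.3% of all genes in B3 and 37.2% in C4, and above 57.3% in WT.

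ABCA6 had the second largest difference. Its log2 values were 11.17, 11.15 and 11.16 in the B3 libraries and 11.27, 11.11 and 11.17 in the C4 libraries, against 12.58, 12.59 and 12.56 in the WT libraries. The gap to the lowest WT library was 1.39 for B3 and 1.297 for C4, so the groups did not overlap WT. ABCA6 RNA was at 37.5% of its WT level in B3 and at 38.0% in C4 (differences of -1.42 ± 0.03 and -1.40 ± 0.03). The difference was rank 14 from the lowest in B3 and rank 26 in C4.

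ABCA5, the lysosomal member, was lower by a smaller step. It was at 12.34, 12.31 and 12.34 in the B3 libraries and 12.39, 12.32 and 12.34 in the C4 libraries, against 12.78, 12.71 and 12.78 in the WT libraries. The groups did not overlap WT, with a gap of 0.37 for B3 and 0.31 for C4. The level was 74.4% of WT in B3 and 75.4% in C4 (differences of -0.43 ± 0.03 and -0.41 ± 0.03).

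ABCA9 and ABCA10 were weakly expressed and differed least. ABCA9 was at 7.53, 7.65 and 7.70 in the B3 libraries and 7.51, 7.69 and 7.65 in the C4 libraries, against 7.92, 7.76 and 7.89 in the WT libraries. ABCA10 was at 7.73, 7.75 and 7.82 in the B3 libraries and 7.71, 7.67 and 7.65 in the C4 libraries, against 7.95, 7.82 and 7.91 in the WT libraries. The knockout libraries again lay below the WT libraries, for ABCA10 in B3 by only 0.0076 on the log2 scale. B3 minus WT was -0.23 ± 0.06 for ABCA9 and -0.13 ± 0.05 for ABCA10. C4 minus WT was -0.24 ± 0.06 for ABCA9 and -0.22 ± 0.05 for ABCA10. Part of the ABCA10 transcript sequence is shared with the far more abundant ABCA5. The part of ABCA5 reads in the ABCA10 values was not tested.

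**Figure D1:**
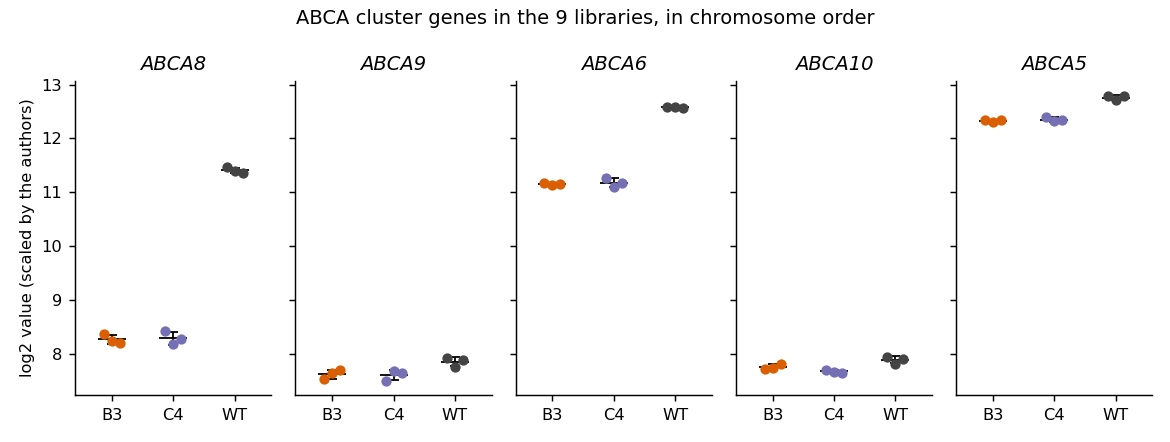
Log2 values (vertical axis) of the 5 cluster genes, in chromosome order, in the B3, C4 and WT libraries; points are libraries and the bar and whiskers are the mean and SD of 3. ABCA8 and ABCA6 lie far below WT in both knockout lines, while ABCA9 and ABCA10 lie between 7.51 and 7.95 in every library.

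All 5 members thus had every B3 and every C4 library below every WT library. Among all genes tested, 27.4% did so in B3 and 30.2% in C4, and nothing is read from the members' count because the set was chosen by this contrast. The size of the difference did not follow position. From the ABCA8 end of the cluster to the ABCA5 end, B3 minus WT ran -3.13, -0.23, -1.42, -0.13 and -0.43, and C4 minus WT ran -3.11, -0.24, -1.40, -0.22 and -0.41. ABCA9, with its small difference, sits between ABCA8 and ABCA6, with gaps of 19.1 kb and 17.6 kb, and ABCA6 lies 5.3 kb from ABCA10.

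To compare levels between genes, values were scaled by the length of each gene's exons, the union over all annotated transcripts. In WT, ABCA5 and ABCA6 were the highest members, at log2 values per kb of 9.04 ± 0.04 and 8.75 ± 0.01 (SD, n = 3), followed by ABCA8 at 7.92 ± 0.05. ABCA10 and ABCA9 were far lower, at 4.82 ± 0.06 and 4.67 ± 0.08. ABCA8 per kb was 4.79 ± 0.09 in B3 and 4.81 ± 0.12 in C4, which is close to the level of ABCA9 and ABCA10. Its nearest neighbour in B3 was ABCA12, a keratinocyte lipid transporter, at 4.75 ± 0.09, and the libraries of the pair overlapped. Summed over the cluster, the antilogs per kb were 50.1% of the WT mean in B3 and 50.6% in C4.

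The make-up of the cluster's RNA shifted from ABCA8 and ABCA6 towards ABCA5, ABCA9 and ABCA10. ABCA5 gave 62.3% ± 0.1 of the length-scaled total in B3 and 62.5% ± 0.4 in C4, against 42.0% ± 0.8 in WT (SD, n = 3). ABCA8 gave 4.39% ± 0.26 in B3 and 4.42% ± 0.22 in C4, against 19.3% ± 0.5 in WT. ABCA6 gave 25.7% ± 0.1 in B3 and 25.8% ± 0.6 in C4, against 34.4% ± 0.7 in WT. ABCA9 gave 3.5% in B3 and 3.4% in C4, against 2.0% in WT. ABCA10 gave 4.1% in B3 and 3.8% in C4, against 2.3% in WT. Each of these genes held under 5% in every library. These shares rest on the differences already described and are no separate evidence.

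**Figure D2:**
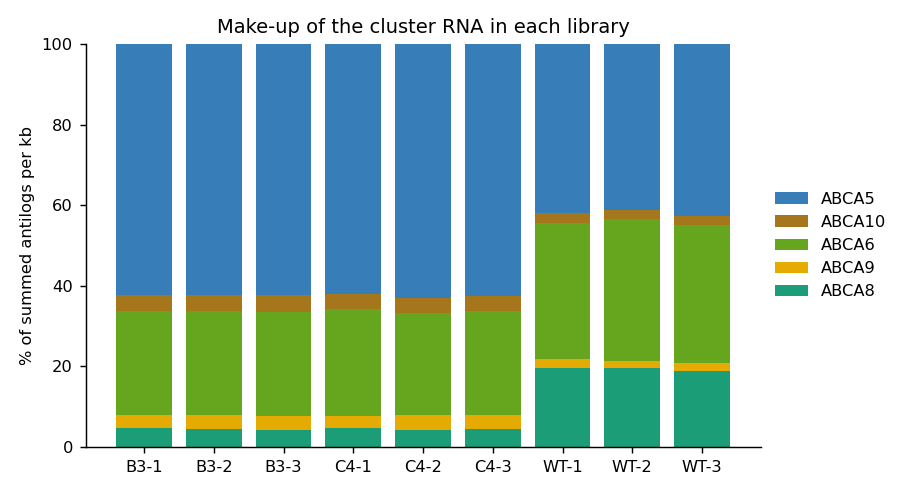
Share of each member (percent of the summed antilogs per kb of exon, vertical axis) in each of the 9 libraries. ABCA8 takes 18.8% to 19.7% in the WT libraries and 4.17% to 4.68% in the 6 knockout libraries, and ABCA5 takes 62.1% to 62.9% in the knockout libraries and 41.2% to 42.7% in the WT libraries.

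The comparison of C4 with B3 was not itself used to choose the members, and their rows in it are given with limma's test. The set was, however, chosen by ABCA8 being low in both lines, with earlier results of these data known. C4 minus B3 is the difference of those values. The rows of the 5 members here, and their count below, are therefore a description and no independent result. None of the 5 passed limma's adjusted p of 0.05 over all genes, while 56.4% of the 16457 genes tested did. Unadjusted p was also above 0.05 for each of the 5, whose 95% intervals include 0. ABCA8 differed by 0.02 between the lines (C4 minus B3, 95% interval -0.09 to 0.14, adjusted p = 0.764), ABCA6 by 0.02 (-0.05 to 0.09, adjusted p = 0.645) and ABCA5 by 0.02 (-0.04 to 0.08, adjusted p = 0.579). ABCA9 differed by -0.01 (-0.13 to 0.10, adjusted p = 0.874). ABCA10 came nearest to the threshold, at -0.09 (-0.18 to 0.01, adjusted p = 0.111), and was called without the intensity trend in the moderation (adjusted p = 0.0483, and from 0.0483 to 0.324 across the alternatives). The intervals leave room for differences of up to 0.18 on the log2 scale, so the lines are not shown to be equal. C4 replicate 1 had the highest values of its group for ABCA5, ABCA6 and ABCA8 and the lowest for ABCA9, and without it the differences of these 4 genes changed sign, to -0.0027, -0.02 and -0.04 for ABCA5, ABCA6 and ABCA8 and 0.04 for ABCA9. ARNT2 itself was higher in C4 than in B3 by 0.25 ± 0.03 (adjusted p = 4.42e-07).

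**Figure D3:**
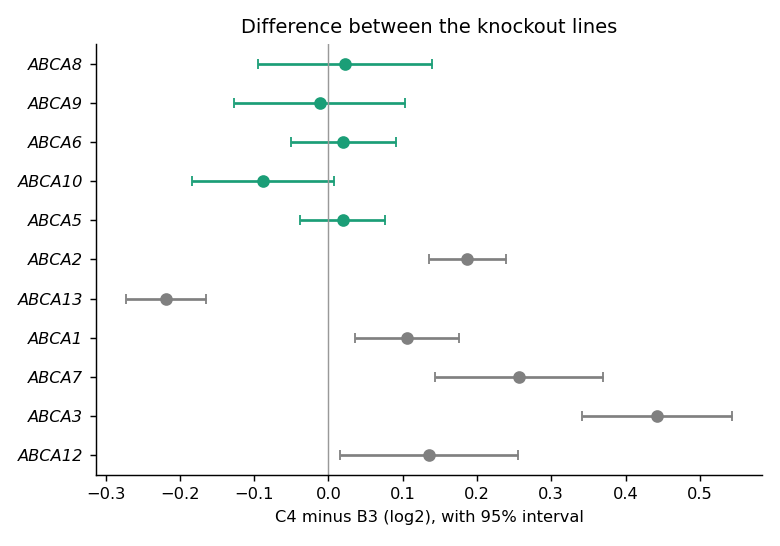
C4 minus B3 (log2, horizontal axis) with limma's 95% interval for the 5 cluster members (green) and the 6 other ABCA genes tested (grey). The unadjusted intervals of the 5 members include 0 and those of the 6 other genes do not, although ABCA12 misses the adjusted threshold (adjusted p = 0.0508). The members' rows are a description, as the set was chosen by low ABCA8 in both lines.

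The other ABCA genes, which lie on other chromosomes, did not share one direction. There were 7 of them, of which 6 were tested, and ABCA4, the retinal transporter, was below the filter at 3.21 to 3.30 over all libraries. In B3, 2 rose and 3 fell, where 23.2% of all genes rose and 24.6% fell (47.9% called in all). In C4, 4 rose and 2 fell, where 28.2% of all genes rose and 28.0% fell (56.2% in all). The median difference was -0.09 in B3 and 0.20 in C4, against 0.0001 and 0.0012 over all genes. ABCA1, which exports cholesterol and phospholipid to apolipoproteins, rose in both lines. Its log2 values were 11.58 to 11.64 in B3 and 11.66 to 11.79 in C4, against 11.27 to 11.32 in WT, and the differences were 0.32 ± 0.03 in B3 (limma adjusted p = 3.77e-08) and 0.43 ± 0.03 in C4 (adjusted p = 1.77e-10). ABCA7, a phospholipid transporter, rose by 0.23 ± 0.05 in B3 (adjusted p = 0.00113) and 0.49 ± 0.05 in C4 (adjusted p = 5.69e-08).

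ABCA2 and ABCA13 fell in both lines. ABCA2, a transporter of brain and myelin-forming cells, was the highest ABCA gene per kb in every group, and fell by 0.41 ± 0.03 in B3 (adjusted p = 4.17e-12) and 0.23 ± 0.03 in C4 (adjusted p = 5.05e-08). ABCA13, the longest member of the class, fell by 0.34 ± 0.03 in B3 (adjusted p = 2.66e-10) and 0.56 ± 0.03 in C4 (adjusted p = 1.49e-14). ABCA3, the surfactant lipid transporter, fell by 0.25 ± 0.05 in B3 (adjusted p = 0.00015) and rose by 0.19 ± 0.05 in C4 (adjusted p = 0.00225). ABCA12 rose in C4, by 0.22 ± 0.06 (adjusted p = 0.00270), and was at 0.08 ± 0.06 in B3 (adjusted p = 0.261). With ABCA1 higher and ABCA8 lower, ABCA1 per kb lay above ABCA8 in B3 and C4 (8.10 ± 0.03 and 8.21 ± 0.07), while it lay below ABCA8 in WT (7.78 ± 0.03).

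**Figure D4:**
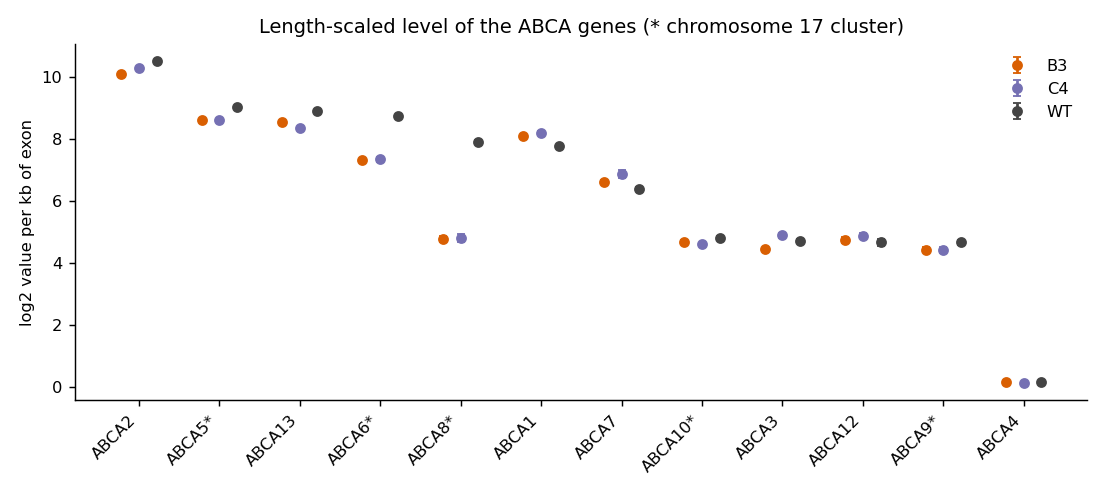
Level per kb of exon (log2, vertical axis; mean and SD of 3 libraries) of the 12 ABCA genes in B3, C4 and WT, ordered by the WT level, with the cluster members starred. ABCA8 sits among ABCA10, ABCA3, ABCA12 and ABCA9 in both knockout lines, and beside ABCA1 in WT.

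Genes next to the cluster differed from wild type by less than ABCA8 and ABCA6, but in C4 some fell by more than ABCA5, ABCA9 and ABCA10. Inside the cluster or with a start within 1 Mb of it the table held 16 further genes, of which 14 were tested. In B3, 2 rose and 7 fell, where 23.2% of all genes rose and 24.6% fell. In C4, 3 rose and 8 fell, where 28.2% of all genes rose and 28.0% fell. The medians were -0.07 in B3 and -0.10 in C4. FAM20A, a pseudokinase gene of enamel formation, has the nearest start on the ABCA8 side at 265.9 kb, and fell by 0.37 ± 0.05 in B3 (limma adjusted p = 1.99e-06) and 0.26 ± 0.05 in C4 (adjusted p = 9.38e-05). MAP2K6, a kinase gene of the p38 pathway, starts 87.5 kb beyond ABCA5. It was at 11.13 to 11.24 in B3 and 11.17 to 11.24 in C4, against 11.07 to 11.14 in WT. It rose by 0.11 ± 0.04 in C4 (adjusted p = 0.0100, and 0.0539 without WT replicate 3), and its difference in B3 was 0.08 ± 0.04 (adjusted p = 0.0801, and from 0.0130 to 0.354 across the alternatives).

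The largest differences among the neighbours were those of a pair of overlapping genes, whose starts lie 608.1 kb (ARSG) and 576.0 kb (SLC16A6) from the cluster. ARSG, a lysosomal sulfatase gene, was at 8.91 to 8.97 in B3 and 8.55 to 8.60 in C4, against 9.26 to 9.44 in WT. It fell by 0.41 ± 0.05 in B3 (adjusted p = 2.38e-07) and 0.78 ± 0.05 in C4 (adjusted p = 3.25e-12). SLC16A6, a monocarboxylate transporter gene on the opposite strand within ARSG, fell by 0.37 ± 0.05 in B3 (adjusted p = 9.45e-07) and 0.81 ± 0.05 in C4 (adjusted p = 1.20e-12). The sources used here do not say whether reads were counted by strand, so the reads of this pair cannot be told apart where the genes overlap. Both were lower in C4 than in B3, by 0.36 ± 0.05 for ARSG (adjusted p = 1.02e-06) and 0.44 ± 0.05 for SLC16A6 (adjusted p = 4.49e-08).

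**Figure D5:**
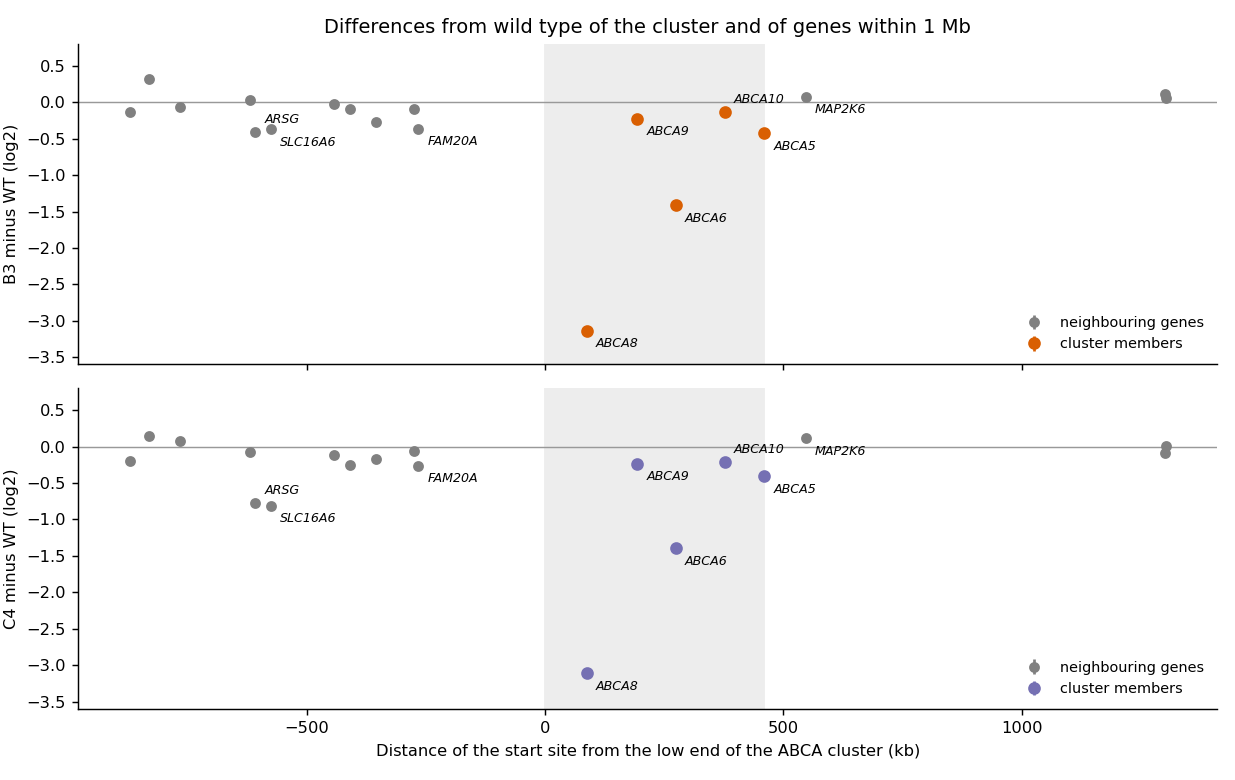
Difference from WT (log2 ± SE, vertical axes; upper panel B3, lower panel C4) of the cluster members and of the 14 tested genes within 1 Mb, by the distance of their start from the low end of the cluster in kb; the grey band is the cluster. ABCA8 and ABCA6 lie below -1.3 in both panels, with ABCA9 near -0.2 between them.

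The cluster genes are related in sequence, which bears on how reads were assigned. Of the 50-base words in the transcripts of ABCA8, 2.15% occurred in transcripts of any other gene, counting both strands, and 0.488% in other members. For ABCA6 these shares were 0.293% and 0%, and for ABCA5 both were 2.02%, all of it shared with the overlapping ABCA10. ABCA9 shared 5.40% with other genes, chiefly with ABCA9-AS1, an antisense gene annotated across ABCA9 and the 5′ end of ABCA8. ABCA10 shared 4.84% with other genes and 3.01% with other members, chiefly with ABCA5 on the same strand. ABCA5 was far more abundant, with a mean antilog of 6926.6 in WT against 238.1 for ABCA10. Counting by strand would not separate ABCA5 from ABCA10. Whether reads of ABCA5 added to the level or the decrease of ABCA10 was not tested. Without counting by strand, reads of ABCA9-AS1 cannot be told apart from those of ABCA8 and ABCA9 in the exons they share. The read length is not given in the sources used here, so the effect on counting was not tested.

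The profiles most like those of the members were picked among all tested genes by the distance between log2 values centred on each gene's mean, over the 9 libraries, which share 3 groups. For ABCA8 these were LCN2, an iron-siderophore binding lipocalin gene (distance 1.42), PAGE2, a cancer-testis gene (1.69), and PLBD1, a phospholipase B-like gene (2.01). Even the nearest was thus far off, since LCN2 was at -2.12 in B3 and -3.02 in C4. For ABCA6 they were the complement gene C3 (0.19), GAGE1 (0.22), whose family holds near-identical copies, and the kinase gene RPS6KA2 (0.27). C3 was at -1.31 in B3 and -1.27 in C4. ABCA5 was nearest to PNMA5, the lysophospholipase gene ENPP2 and the Notch ligand-like gene DNER, at distances of 0.08 to 0.10. PNMA5 had group means of 5.18 to 5.61, below the value of 6 under which the spread narrowed. Whether its differences were narrowed there too was not tested. ABCA9 was nearest to TBL2, the magnesium transporter gene SLC41A2 and the receptor gene FGFR3, and ABCA10 to ATL2, BMP8B and the integrin gene ITGB1.

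Genes of lipid transport and metabolism were then read as lists, beside the shares over all genes of 23.2% higher and 24.6% lower (47.9% called) in B3 and 28.2% higher and 28.0% lower (56.2% called) in C4. Of the other ABC proteins, 10 of 30 tested rose and 9 fell in B3, and 11 rose and 7 fell in C4, with medians of -0.03 and 0.04. The drug efflux pump gene ABCB1 fell by 0.38 ± 0.05 in B3 (adjusted p = 3.60e-07) and 0.39 ± 0.05 in C4 (adjusted p = 1.25e-07). ABCC3, an organic anion pump gene, rose by 0.50 ± 0.05 in B3 (adjusted p = 9.06e-09) and was at -0.07 ± 0.05 in C4 (adjusted p = 0.247). Of the genes of cholesterol efflux and of the response to LXR, the nuclear receptor that senses oxysterols, 4 of 23 rose and 8 fell in B3, and 9 rose and 1 fell in C4, with medians of 0.02 and 0.01. Their total of 12 calls in B3 and 10 in C4 is read against the same 47.9% and 56.2%. The single decrease in C4 was that of APOD, a lipid-binding apolipoprotein gene, at 15.42 ± 0.06 in B3 and 15.37 ± 0.08 in C4, against 16.12 ± 0.04 in WT (SD, n = 3), a fall of 0.70 ± 0.03 in B3 (adjusted p = 7.85e-14) and 0.75 ± 0.03 in C4 (adjusted p = 9.00e-15). APOE, the main lipid carrier of the brain, fell by 0.19 ± 0.03 in B3 (adjusted p = 2.08e-05) and rose by 0.37 ± 0.03 in C4 (adjusted p = 4.73e-10).

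Of 36 sphingolipid genes tested, 4 rose and 18 fell in B3, where 23.2% of all genes rose and 24.6% fell, and 8 rose and 14 fell in C4, where 28.2% rose and 28.0% fell, with medians of -0.07 and -0.03 against 0.0001 and 0.0012 over all genes. COL4A3BP, the ceramide transfer protein gene, fell by 0.14 ± 0.02 in B3 (adjusted p = 7.21e-06) and rose by 0.47 ± 0.02 in C4 (adjusted p = 9.50e-15).

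Among markers of cell types in which ABCA8 is known to be expressed, the fibroblast and perivascular list held genes of both directions. Of 14 tested, 2 rose and 4 fell in B3, where 23.2% of all genes rose and 24.6% fell (47.9% called). In C4, 1 rose and 5 fell, where 28.2% of all genes rose and 28.0% fell (56.2% called). The medians of these genes were -0.05 in B3 and -0.09 in C4. Their summed antilog was 143946 to 149803 in B3 and 130348 to 137111 in C4, against 200970 to 207404 in WT, and most of it was CSPG4, a proteoglycan gene also expressed by glioma cells, which fell by 0.52 ± 0.03 in B3 (adjusted p = 2.76e-12) and 0.65 ± 0.03 in C4 (adjusted p = 1.91e-14). The pericyte gene RGS5 fell by 1.22 ± 0.05 in B3 (adjusted p = 1.39e-14) and was at 0.10 ± 0.05 in C4 (adjusted p = 0.127, and from 0.0134 to 0.797 across the alternatives). LUM, a collagen-binding proteoglycan gene, fell by 0.89 ± 0.03 in C4 (adjusted p = 2.86e-16) and was at -0.08 ± 0.03 in B3 (adjusted p = 0.0535, and from 0.0247 to 0.257 across the alternatives). The fibroblast marker PI16 was near the low end of the table, at 2.29 to 2.36 in every library.

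Of the oligodendrocyte and myelin markers, 3 of 11 rose and 4 fell in B3 (47.9% of all genes called), and 5 rose and 4 fell in C4 (56.2% called). MAG, a myelin adhesion gene, fell by 0.36 ± 0.02 in B3 (adjusted p = 2.87e-11) and 0.71 ± 0.02 in C4 (adjusted p = 4.06e-17), and OLIG1 rose by 0.46 ± 0.05 in B3 (adjusted p = 1.08e-07) and 0.66 ± 0.05 in C4 (adjusted p = 1.48e-10). The summed antilog of this list was 301662 to 304228 in B3 and 361691 to 366169 in C4, against 331024 to 335947 in WT. Of the immune and endothelial markers, 2 of 6 rose and 2 fell in B3 (47.9% of all genes called), and 1 rose and 1 fell in C4 (56.2% called). VWF, an endothelial clotting factor gene, fell by 0.41 ± 0.05 in B3 (adjusted p = 2.03e-07), and CD68, a macrophage and lysosome gene, rose by 0.27 ± 0.03 (adjusted p = 7.87e-07). Of the glioma cell markers, 4 of 10 rose and 4 fell in B3 (47.9% of all genes called), and 3 rose and 4 fell in C4 (56.2% called). EGFR fell by 0.53 ± 0.04 in B3 (adjusted p = 2.13e-11) and 0.24 ± 0.04 in C4 (adjusted p = 4.03e-06), and the fatty acid binding protein gene FABP7 fell by 0.40 ± 0.03 in B3 (adjusted p = 3.44e-10). The part of these markers in the levels of the cluster genes was not tested.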

How the data were processed

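Polyadenylated RNA was measured in 9 LN229 libraries. The submitters' processing notes name build hg38 and the tools DESeq2, Subread (1.6.3) and STAR (2.7.3a), without their role or order. The deposited table holds log2 values. How the authors scaled and transformed them is not given in the sources used here. Read depth is unknown, so no interval that needs counts is given.

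A gene was tested if its antilog averaged 10 or more over the libraries, which kept 16457 of 19356 and all 5 cluster genes. All libraries entered a single limma fit (limma 3.58.1, R 4.3.3) with a coefficient per group and a variance trend on intensity. Calls used two-sided p-values with Benjamini-Hochberg adjustment over every gene tested and a threshold of 0.05. The fit was tested on simulated data. Differences are given ± SE. Positions and exon lengths are from GENCODE 29 and promoters from RefSeq (GRCh38.p14). The members and lists were chosen with earlier results of these data known. The named genes are the members, the other ABCA genes, neighbours that differed by at least 0.5 and the nearest on each side, up to 4 genes per list, of which 2 were taken, the 3 nearest profiles per member and markers near the low end. CSPG4, GFAP, CHI3L1, SOX9 and CSF1R were named after their values were seen, and 1 gene that the rule names is not reported here. No label gives a batch. Alternatives were other filters, pseudocounts, scalings and moderation, fits of the compared groups, a replicate block and leaving out each library.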

Additional observations from a re-analysis of the deposited data

Results flagged for a closer look

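Of the 44 genes named by rule and reported, 24 had an effect that differed between the knockout lines, by limma's test of C4 minus B3 with Benjamini-Hochberg adjustment and n = 3 libraries per group. None of these was a cluster member, which is a description only, as the set was chosen by low ABCA8 in both lines. All values are C4 minus B3 on the log2 scale. The targeted gene ARNT2 (0.25, adjusted p = 4.42e-07) was less reduced in C4. Among the other ABCA genes the difference was called for ABCA1 (0.11, adjusted p = 0.0101), ABCA2 (0.19, adjusted p = 9.91e-07), ABCA3 (0.44, adjusted p = 4.84e-08), ABCA7 (0.26, adjusted p = 0.000314) and ABCA13 (-0.22, adjusted p = 1.58e-07). The call for ABCA1 ended without C4 replicate 3 (adjusted p = 0.108, and from 0.00334 to 0.108 across the alternatives). Of the neighbours it was called for ARSG (-0.36, adjusted p = 1.02e-06) and SLC16A6 (-0.44, adjusted p = 4.49e-08). Of the genes of ABC proteins and lipid metabolism it was called for ABCC3 (-0.56, adjusted p = 5.22e-10), APOE (0.56, adjusted p = 2.6e-13) and COL4A3BP (0.62, adjusted p = 7.21e-17). APOE, COL4A3BP and ABCA3 fell in B3 and rose in C4.

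Among the markers, the lines differed for RGS5 (1.32, adjusted p = 1.39e-15), LUM (-0.81, adjusted p = 1.91e-15), MAG (-0.35, adjusted p = 1.65e-11) and OLIG1 (0.20, adjusted p = 0.00198), and for VWF (0.36, adjusted p = 7.3e-07), CD68 (-0.27, adjusted p = 3.15e-07), EGFR (0.29, adjusted p = 2.04e-07) and FABP7 (0.42, adjusted p = 8.27e-11). Of the genes whose profiles were nearest to the members, they differed for LCN2 (-0.90, adjusted p = 3.28e-12), PAGE2 (0.52, adjusted p = 2.48e-08), RPS6KA2 (-0.18, adjusted p = 0.00154), ATL2 (-0.079, adjusted p = 0.01) and ITGB1 (-0.097, adjusted p = 0.0081). Of all genes tested, 56.4% were called in this comparison.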

How the results depend on the processing

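Over 45 results and 19 alternatives, 844 of 855 values counted as the same as in the main fit, by a rule for each kind. A test had to keep its direction and its side of the threshold. A difference from WT had to keep its sign and move by less than the replicate SD. A count of called genes had to stay within a fixed ratio of the main count. The differences of the 5 members from WT were below 0 under all the alternatives. With every library at the same total, B3 minus WT was -0.39 for ABCA5 and -1.38 for ABCA6, since this scaling shifts every gene of a library by the same amount. Why the totals differ was not tested. That scaling moved the median of all genes by 0.03 in B3 and in C4, and put 64.2% of called genes on the higher side in B3 and 61.5% in C4, against 48.5% and 50.2% as deposited. C4 minus B3 of ABCA10 was called without the intensity trend, at -0.088 with adjusted p = 0.0483. Leaving out each library in turn gave C4 minus B3 of -0.0027 to 0.034 for ABCA5, -0.023 to 0.056 for ABCA6, -0.043 to 0.075 for ABCA8 and -0.059 to 0.042 for ABCA9, and their sign changed without C4 replicate 1 and, for ABCA8 (-0.0099) and ABCA9 (0.025), without B3 replicate 3. With a filter of 50 on the mean antilog, 1 immune and endothelial marker was called in C4 against WT and 2 between the lines, against 2 and 4, because fewer genes were tested.

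Replicate numbers gave no pairing: deviations of the 9 same-numbered pairs correlated at -0.23 to 0.02. With the number as a replicate block, 7504 genes were called for B3, 8961 for C4 and 9017 for C4 minus B3, against 7876, 9244 and 9284 without it, and C4 minus B3 stayed uncalled for the members (ABCA8 adjusted p = 0.716). Depth is unknown, so how far it limits ABCA9 and ABCA10, the weakest members, cannot be given.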
